A study of Homo sapiens with 17 samples.

Results

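Integrins and laminins were examined as a family of 37 genes, the integrin alpha and beta subunits and the laminin chains, in human lung adenocarcinoma cells with and without the kinase LKB1. A gene entered where the array annotation gave a probe set to it alone. This held for 34 of the 37 genes, among 17958 genes measured in all: 16 alpha subunits, 8 beta subunits and 10 laminin chains, each with 1 probe set. The only probe sets of ITGA1 and ITGA4 are shared with other genes and LAMA3 was not matched, so these 3 genes were not analysed here.

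Integrins are cell surface receptors made of an alpha and a beta subunit, whose pairing decides which matrix protein is bound. They join the extracellular matrix to the actin cytoskeleton and signal through focal adhesion proteins. Laminins are trimers of an alpha, a beta and a gamma chain and are main building blocks of the basement membrane on which lung epithelium rests, where epithelial cells hold them through integrins α3β1, α6β1 and α6β4. Carcinoma cells often change these receptors as they spread.

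The 2 lines, A549 and H2122, lack functional LKB1, the tumour suppressor kinase that STK11 encodes. Cells had been infected with the retroviral vector pBABE bearing wild-type LKB1, bearing K78I, an LKB1 mutant without kinase activity, or bearing no insert, and all groups were then selected in puromycin at 1 µg/mL for 2 weeks and grown in 5% serum. The labels do not say whether the infected cells were pools or clones. Each line had 3 arrays with LKB1, 3 with K78I and 3 with pBABE, except for 2 with pBABE in H2122. The K78I and pBABE groups, with equal weight, are called the controls below.

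All levels are on the log2 scale of the authors' RMA values, so 1 unit is a 2.0-fold change. Array medians lay between 5.62 and 5.73 over all probe sets. Over the 17958 genes used here they lay between 6.30 and 6.52. As there were no detection calls, low levels cannot be told from background, and levels of different genes cannot be compared. The labels do not state separate cultures for the replicates, and p-values thus cover the spread among arrays, which may be technical. A lower level cannot be told apart from fewer cells that carry the transcript. All 6 epithelial markers were above 10 on every H2122 array; in A549 the keratins KRT7, KRT8 and KRT18 were above 11, while KRT19 stayed at 5.48 or below. Also in A549, EPCAM ran from 5.89 to 7.39 with LKB1 and from 6.47 to 7.65 on controls, and CDH1 fell by 1.17 with LKB1 (limma adjusted p = 0.011). The 5 measured leukocyte markers reached at most 5.51 and the 4 endothelial markers at most 6.32, for PECAM1 on an H2122 control. PECAM1 fell by 0.79 with LKB1 in H2122 (limma adjusted p = 0.0116), and the part of these markers in the results was not tested.

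Several arrays were in doubt, some by their labels and some by their own values, the latter chosen after seeing the data. In A549, STK11 stood at 9.42, 10.23 and 9.62 with LKB1, at 10.54, 7.14 and 10.42 with K78I, and at 6.88, 7.38 and 10.52 with pBABE, so the library labelled K78I replicate 2 and the library labelled pBABE replicate 3 went against their labels. In H2122 it stood at 11.20 to 11.35 with LKB1, at 11.26 to 11.31 with K78I, and at 6.33 and 6.22 with pBABE. The LKB1 arrays and the pooled control arrays, which include K78I with its own transcript, differed in mean STK11 by 0.95 in A549 (p = 0.464 by an exact permutation test, two-sided, which can reach 0.0119) and by 1.99 in H2122 (p = 0.339 by the same exact permutation test, which can reach 0.0179). With K78I and pBABE at equal weight the H2122 difference was 2.49 (limma adjusted p = 0.0634). In H2122 the source name of LKB1 replicate 3, K78I replicate 3 and pBABE replicate 2 gives another construct than the title, and groups here follow the titles. A list of 26 cell cycle genes was low on A549 K78I replicate 2, where its mean deviated by -0.91 from the mean of the line, on A549 pBABE replicate 1 (-0.38) and on H2122 pBABE replicate 2 (-1.37), against -0.07 to 0.33 on the other arrays.

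In each line most of the calls were integrin subunits that rose with LKB1. In A549, 7 of 34 genes rose and 2 fell (26.5% called), where 8.44% of all genes were called, 5.49% higher and 2.95% lower, at an adjusted p under 0.05 by limma with Benjamini-Hochberg adjustment over all genes. In H2122, 12 of 34 rose and 0 fell (35.3% called), where 7.28% of all genes were called, 4.99% higher and 2.29% lower. The median over the family was 0.04 in A549 and 0.10 in H2122, against medians of -0.02 and -0.04 over all genes. Of all A549 calls 65.0% were higher with LKB1, and 51.9% with each array centred on its median; the direction of the 9 family calls was the same under both.

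The same 6 subunits, 6 of the 7 that rose in A549 and 6 of the 12 in H2122, rose in both lines: ITGAV, ITGB6, ITGB3, ITGB4, ITGA3 and ITGA2. Of all genes 1.45% rose in both lines, 0.351% fell in both and 0.156% were called in opposite directions, while 6.48% were called in A549 and not in H2122 and 5.32% in H2122 and not in A549. ITGA11 rose and ITGB5 fell in A549, while neither passed the test in H2122. ITGA6, ITGA5, ITGB1, ITGB8 and LAMC1 rose in H2122 and did not pass the test in A549. LAMB1 fell in A549 and rose in H2122. By class, the A549 calls were 4 of 16 alpha subunits, 4 of 8 beta subunits and 1 of 10 laminin chains. The H2122 calls were 5 of 16, 5 of 8 and 2 of 10. Of all genes 8.44% were called in A549 and 7.28% in H2122, so the A549 count of laminin chains lies near that share.

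Every LKB1 array lay above every control array for 8 of 34 members in A549 and below for 3, against 8.46% and 6.65% of all genes. In H2122 this held for 13 above and 0 below, against 8.54% and 8.82% of all genes.

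**Figure D1:**
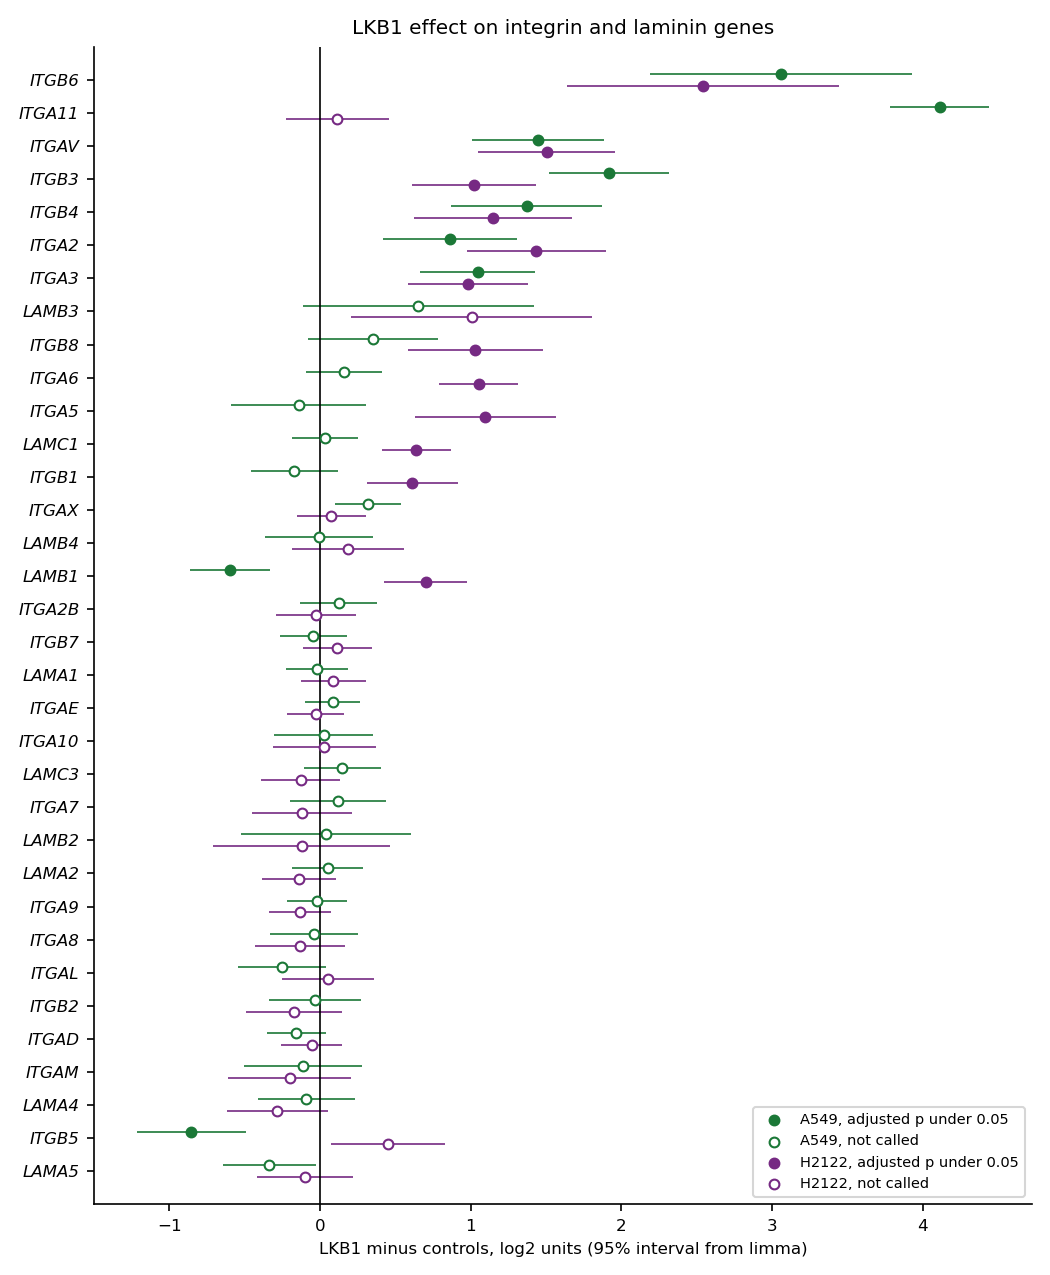
LKB1 minus controls for each of the 34 members on the log2 scale, with 95% intervals from limma, A549 in green and H2122 in purple; filled points are genes called at an adjusted p under 0.05. ITGB6 and ITGAV lie to the right in both lines, ITGA11 in A549 at 4.11 but in H2122 at 0.11, and LAMB1 lies on opposite sides of 0.

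The αv group held the largest changes that the lines shared. ITGAV encodes αv, the shared partner of the subunits encoded by ITGB1, ITGB3, ITGB5, ITGB6 and ITGB8, and these receptors bind matrix proteins that carry the RGD motif, such as fibronectin and vitronectin. In A549 ITGAV stood at 12.04, 11.87 and 11.96 with LKB1, against 10.77, 10.26 and 11.01 with K78I and 10.09, 9.91 and 11.02 with pBABE. In H2122 it stood at 11.91, 11.98 and 11.88 with LKB1, against 10.75, 10.80 and 10.40 with K78I and 10.25 and 10.14 with pBABE. The groups did not overlap in either line, and the LKB1 arrays of both lines ended at much the same level. The rise was 1.45 ± 0.21 in A549 (SE, limma adjusted p = 0.000405) and 1.503 ± 0.21 in H2122 (SE, limma adjusted p = 0.000444).

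ITGB6 encodes the epithelial β6 subunit of αvβ6, a receptor for fibronectin, tenascin and the latent form of TGF-β, which it can activate. Its A549 levels were 9.57, 9.55 and 9.63 with LKB1, against 7.10, 5.77 and 7.10 with K78I and 5.55, 5.74 and 7.90 with pBABE. Its H2122 levels were 10.60, 10.71 and 10.71 with LKB1, against 8.61, 8.24 and 8.06 with K78I and 7.99 and 7.93 with pBABE. The LKB1 arrays lay close together and above all controls, while the A549 controls ran from 5.55 to 7.90. ITGB6 rose by 3.06 ± 0.41 in A549 (8.34-fold; SE, limma adjusted p = 0.000228) and by 2.54 ± 0.42 in H2122 (5.83-fold; SE, limma adjusted p = 0.00153).

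The β3 subunit, encoded by ITGB3, pairs with αv in the vitronectin receptor. In A549 ITGB3 stood at 6.72, 7.16 and 6.88 with LKB1, against 5.09, 4.55 and 5.32 with K78I and 4.74, 4.87 and 5.46 with pBABE. In H2122 its levels were 5.49, 5.42 and 5.41 with LKB1, against 4.27, 4.40 and 4.32 with K78I and 4.79 and 4.21 with pBABE. No control array reached an LKB1 array in either line, although the H2122 levels were low throughout. The rise was 1.92 ± 0.19 in A549 (SE, limma adjusted p = 1.59e-05) and 1.02 ± 0.19 in H2122 (SE, limma adjusted p = 0.00383), and the 2 effects differed by 0.89 (95% interval 0.32 to 1.47), which missed the threshold for a difference (limma adjusted p = 0.0941).

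ITGB5 and ITGB8 encode further αv partners. ITGB5, whose product also binds vitronectin with αv, stood in A549 at 9.995, 9.69 and 9.86 with LKB1, against 10.56, 10.63 and 10.91 with K78I and 10.80, 10.71 and 10.61 with pBABE. All 3 LKB1 arrays lay below all 6 controls, and ITGB5 fell by 0.85 on the log2 scale (SE 0.17, limma adjusted p = 0.00526). In H2122 it stood at 9.66, 10.32 and 9.85 with LKB1, against 9.23, 9.59 and 9.19 with K78I and 9.29 and 10.01 with pBABE; the groups overlapped, and the difference of 0.45 did not pass (limma adjusted p = 0.161). The H2122 control array at 10.01 was pBABE replicate 2, the array with low cell cycle genes. Without all arrays low in cell cycle genes, which leaves 1 H2122 pBABE array, the H2122 difference was 0.63.

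ITGB8, whose product with αv also binds latent TGF-β, was low in A549, at 4.62, 5.01 and 4.49 with LKB1, against 4.42, 4.34 and 4.45 with K78I and 4.40, 3.99 and 4.51 with pBABE. H2122 arrays stood at 8.87, 8.08 and 8.74 with LKB1, against 8.16, 7.38 and 7.37 with K78I and 7.38 and 7.48 with pBABE. K78I replicate 1 lay above the lowest LKB1 array, so the H2122 groups overlapped. The difference was 0.35 in A549 (limma adjusted p = 0.344), and ITGB8 rose by 1.03 ± 0.21 in H2122 (SE, limma adjusted p = 0.00658). Without LKB1 replicate 1 the H2122 difference was 0.88, and the call was lost (limma adjusted p = 0.0521).

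**Figure D2:**
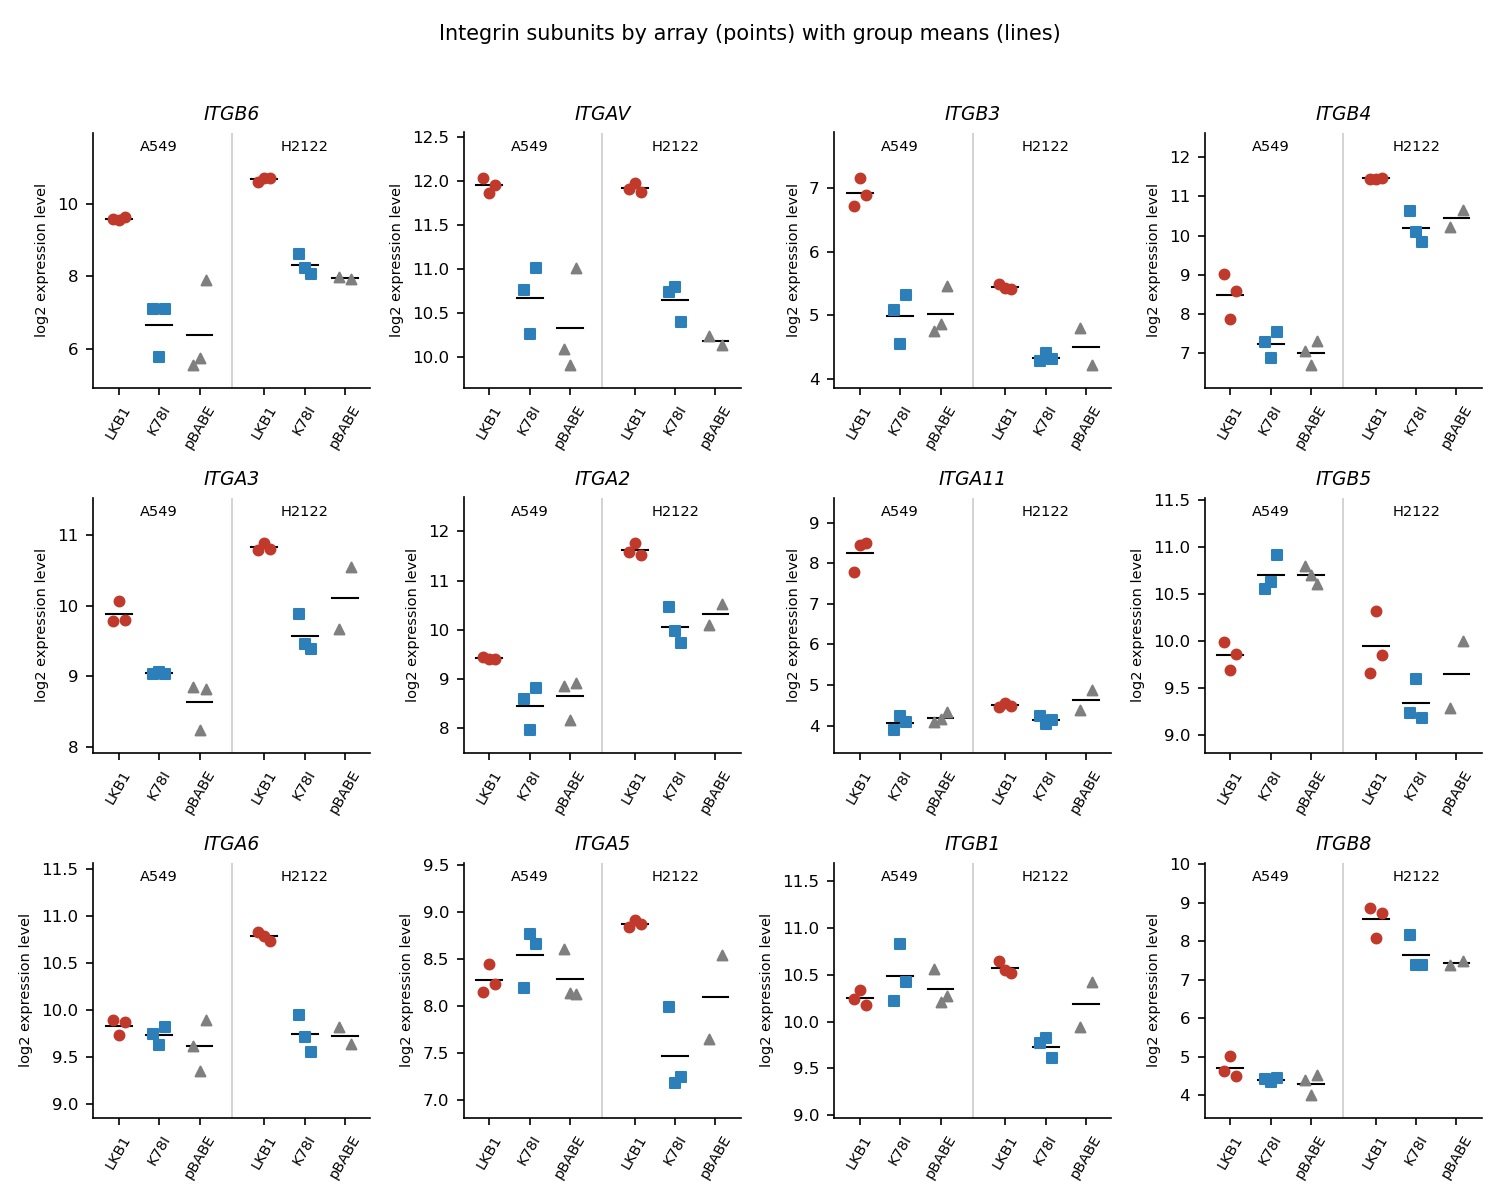
Log2 level of the 12 called integrin subunits on each array (points) with group means (lines), LKB1 in red, K78I in blue and pBABE in grey, A549 left and H2122 right in each panel; each panel has its own axis. In A549 ITGA11 lies near 8 on the LKB1 arrays and near 4 on all controls, and ITGB5 is the subunit whose LKB1 arrays lie below the controls.

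Among collagen receptors, ITGA11 gave the largest A549 change of the family. Its product, α11, pairs with β1, binds fibrillar collagen and is best known from fibroblasts. In A549 ITGA11 stood at 7.77, 8.45 and 8.51 with LKB1, against 3.88, 4.23 and 4.09 with K78I and 4.09, 4.16 and 4.32 with pBABE. On H2122 arrays it stayed at 4.46, 4.56 and 4.48 with LKB1, against 4.24, 4.04 and 4.14 with K78I and 4.39 and 4.88 with pBABE. A549 with LKB1 was the group that stood apart, since the 14 other arrays all lay under 5. Levels under 5 may be background. The size of the A549 rise is then uncertain, and a change in H2122 could have gone undetected. The A549 rise was 4.11 ± 0.15 (17.3-fold; SE, limma adjusted p = 5.58e-10), the H2122 difference was 0.11 (95% interval -0.23 to 0.46), and the effects differed by 3.999 ± 0.22 (SE, limma adjusted p = 1.63e-07). Of 5 fibroblast markers, PDGFRA rose in A549, by 0.78 (limma adjusted p = 0.0284), and the list ran from 2.62 to 5.58 with LKB1 and from 2.59 to 4.61 on A549 controls; their part in the ITGA11 result was not tested.

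ITGA2 encodes α2 of the epithelial collagen and laminin receptor α2β1. Its A549 levels were 9.44, 9.41 and 9.41 with LKB1, against 8.61, 7.96 and 8.82 with K78I and 8.86, 8.17 and 8.93 with pBABE. Its H2122 levels were 11.57, 11.77 and 11.53 with LKB1, against 10.47, 9.99 and 9.74 with K78I and 10.11 and 10.52 with pBABE. All LKB1 arrays lay above all controls of their line. The rise was 0.86 ± 0.21 in A549 (SE, limma adjusted p = 0.0171) and 1.43 ± 0.22 in H2122 (SE, limma adjusted p = 0.000734). Without LKB1 replicate 1, 2 or 3 the A549 difference was 0.85, 0.87 and 0.87, and the call was lost (limma adjusted p = 0.0721, 0.0588 and 0.0735).

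For ITGB6 and ITGAV, which moved together in both lines, and for ITGA11, which changed most in A549, the 250 bases before the start site are shown from RefSeq (GRCh38.p14), 5′ to 3′ on the gene's strand. Promoters were found for 23 of the 34 members. Each was searched on both strands for TGACGTCA (the CREB site), TGANTCA (AP-1), GGAATG (TEAD), CAGACA (SMAD) and CACCTG (the E-box that ZEB and SNAI factors read), and capitals mark a match.
ITGB6 (chr2:160200273-160200522, minus strand): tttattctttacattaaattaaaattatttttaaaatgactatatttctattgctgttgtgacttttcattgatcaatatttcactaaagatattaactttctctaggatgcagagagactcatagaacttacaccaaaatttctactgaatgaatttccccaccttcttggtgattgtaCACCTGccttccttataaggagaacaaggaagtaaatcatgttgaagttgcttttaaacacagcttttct
ITGAV (chr2:186589806-186590055, plus strand): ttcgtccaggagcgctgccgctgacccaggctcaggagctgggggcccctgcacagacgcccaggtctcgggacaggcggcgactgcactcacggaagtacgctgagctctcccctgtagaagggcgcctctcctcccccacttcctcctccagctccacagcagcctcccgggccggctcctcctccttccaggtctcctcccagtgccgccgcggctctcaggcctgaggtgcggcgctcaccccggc
ITGA11 (chr15:68432164-68432413, minus strand): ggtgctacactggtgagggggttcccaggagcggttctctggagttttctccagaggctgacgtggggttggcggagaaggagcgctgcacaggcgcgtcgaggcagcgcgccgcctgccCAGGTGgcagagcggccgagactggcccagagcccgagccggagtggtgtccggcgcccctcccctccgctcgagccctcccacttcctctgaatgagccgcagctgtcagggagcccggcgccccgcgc

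The 3 promoters differ in composition. That of ITGB6 is 30% G and C and holds 0 CpG, where the median of 27305 promoters is 58.0% and 2.29% of them lie at or under 31%. That of ITGAV is 70.8% G and C with 18 CpG, and that of ITGA11 is 71.2% with 23 CpG. The E-box was found 70 bases before the ITGB6 start and, as CAGGTG on the other strand, 130 bases before the ITGA11 start; it is in 17.5% of all promoters and in 6 of the 23 family promoters. The TEAD letters are in 4 of the 23 (11.9% of all promoters), the SMAD letters in 2 (13.6%), and the AP-1 and CREB letters in 0 (6.6% and 1.77%), with 0 matches overlapping another. These matches describe letters and do not show a site in use.

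Among the α subunits of laminin receptors, ITGA3 rose with LKB1 in both lines and ITGA6 in H2122, and ITGA7 passed in neither (0.12 in A549 and -0.12 in H2122). Of their partners, ITGB4 rose in both lines and ITGB1 in H2122. ITGA3 encodes α3 of α3β1, the main laminin receptor of lung epithelial cells. In A549 ITGA3 stood at 9.78, 10.07 and 9.80 with LKB1, against 9.03, 9.07 and 9.03 with K78I and 8.84, 8.23 and 8.81 with pBABE. The H2122 levels were 10.79, 10.89 and 10.80 with LKB1, against 9.88, 9.46 and 9.39 with K78I and 9.67 and 10.55 with pBABE. The groups did not overlap, though H2122 pBABE replicate 2, at 10.55, came close. The rise was 1.05 ± 0.18 in A549 (SE, limma adjusted p = 0.00183) and 0.98 ± 0.19 in H2122 (SE, limma adjusted p = 0.00406).

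ITGB4 encodes β4, which pairs with α6 and anchors hemidesmosomes to laminin. In A549 its levels were 9.02, 7.87 and 8.60 with LKB1, against 7.29, 6.87 and 7.55 with K78I and 7.04, 6.69 and 7.31 with pBABE. In H2122 they were 11.44, 11.45 and 11.48 with LKB1, against 10.62, 10.09 and 9.85 with K78I and 10.22 and 10.66 with pBABE. ITGB4 was lower in A549 with LKB1 than on any H2122 control array. It rose by 1.37 ± 0.24 in A549 (SE, limma adjusted p = 0.00181) and by 1.15 ± 0.24 in H2122 (SE, limma adjusted p = 0.0089).

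ITGA6, which encodes the α6 partner of β1 and β4, stood in A549 at 9.89, 9.74 and 9.88 with LKB1, against 9.75, 9.63 and 9.82 with K78I and 9.62, 9.35 and 9.89 with pBABE. H2122 levels were 10.84, 10.80 and 10.74 with LKB1, against 9.95, 9.72 and 9.56 with K78I and 9.82 and 9.64 with pBABE. The A549 groups overlapped and the H2122 groups were far apart. The difference was 0.16 in A549 (limma adjusted p = 0.493), the rise 1.05 ± 0.12 in H2122 (SE, limma adjusted p = 8.44e-05), and the effects differed by -0.89 ± 0.17 (SE, A549 minus H2122, limma adjusted p = 0.00867).

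The fibronectin receptor α5β1 is encoded by ITGA5 and ITGB1, and β1 is also a partner of α2, α3, α6, α11 and αv. ITGA5 stood in A549 at 8.15, 8.44 and 8.23 with LKB1, against 8.20, 8.77 and 8.66 with K78I and 8.61, 8.14 and 8.12 with pBABE. H2122 arrays gave 8.84, 8.92 and 8.87 with LKB1, against 7.99, 7.18 and 7.25 with K78I and 7.65 and 8.54 with pBABE. Its A549 difference was -0.14 (limma adjusted p = 0.775), and in H2122 it rose by 1.096 ± 0.22 (SE, limma adjusted p = 0.00571). The effects differed by -1.24 ± 0.30 (SE, A549 minus H2122, limma adjusted p = 0.0369).

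ITGB1 followed ITGA5 by line. Its A549 levels were 10.24, 10.33 and 10.18 with LKB1, against 10.22, 10.82 and 10.42 with K78I and 10.56, 10.21 and 10.28 with pBABE. Its H2122 levels were 10.64, 10.55 and 10.52 with LKB1, against 9.77, 9.83 and 9.61 with K78I and 9.94 and 10.42 with pBABE. The A549 difference was -0.17 (limma adjusted p = 0.54), and in H2122 ITGB1 rose by 0.61 ± 0.14 (SE, limma adjusted p = 0.0147). Without LKB1 replicate 1 or 2 the H2122 difference was 0.58 or 0.62, and the call was lost (limma adjusted p = 0.075 and 0.0507). The effects differed by -0.78 ± 0.20 (SE, A549 minus H2122, limma adjusted p = 0.0407).

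Among the 10 laminin chains, LAMB1 and LAMC1 passed a test, LAMB1 in opposite directions. They encode β1 and γ1, the most widely used laminin β and γ chains. LAMB1 stood in A549 at 10.85, 10.70 and 10.73 with LKB1, against 11.23, 11.75 and 11.43 with K78I and 11.49, 11.11 and 11.12 with pBABE. In H2122 it stood at 10.41, 10.27 and 10.52 with LKB1, against 9.80, 9.62 and 9.60 with K78I and 9.82 and 9.62 with pBABE. LKB1 and control arrays did not overlap in either line, and the lines lay closer together with LKB1, at means of 10.76 in A549 and 10.40 in H2122, than on controls, at 11.36 in A549 and 9.69 in H2122. LAMB1 fell by 0.60 in A549 (SE 0.12, limma adjusted p = 0.00685) and rose by 0.70 ± 0.13 in H2122 (SE, limma adjusted p = 0.00315), a difference of -1.30 ± 0.18 between effects (SE, A549 minus H2122, limma adjusted p = 0.000961).

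LAMC1 stood in A549 at 10.13, 10.34 and 10.15 with LKB1, against 10.26, 9.93 and 10.26 with K78I and 10.17, 10.06 and 10.34 with pBABE. The H2122 levels were 11.07, 11.04 and 11.11 with LKB1, against 10.41, 10.55 and 10.26 with K78I and 10.46 and 10.45 with pBABE. The A549 groups overlapped and the H2122 groups did not. The difference was 0.03 in A549 (limma adjusted p = 0.905) and the rise 0.64 ± 0.11 in H2122 (SE, limma adjusted p = 0.00164), with a difference of -0.61 ± 0.15 between effects (SE, A549 minus H2122, limma adjusted p = 0.0368).

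LAMB3, which encodes a chain of the laminin that hemidesmosomes hold, did not pass in either line. In A549 it stood at 8.69, 8.59 and 8.51 with LKB1, against 7.29, 9.20 and 7.67 with K78I and 8.67, 7.61 and 7.23 with pBABE. Its H2122 levels were 11.54, 11.69 and 11.51 with LKB1, against 10.87, 10.34 and 10.18 with K78I and 10.36 and 11.01 with pBABE. The H2122 groups did not overlap; in A549 K78I replicate 2, at 9.20, lay above the LKB1 arrays, and pBABE replicate 1, at 8.67, among them. The difference was 0.65 in A549 (limma adjusted p = 0.32) and 1.01 ± 0.37 in H2122 (SE, limma adjusted p = 0.134). These 2 arrays and H2122 pBABE replicate 2, the highest H2122 control at 11.01, are the arrays low in cell cycle genes. Without them the LAMB3 difference was 1.15 in A549 and 1.17 in H2122. This leaves 1 H2122 pBABE array, which is assumed to vary like the others. Leaving out A549 K78I replicate 2 alone was enough for a call, at 0.94 in A549 (limma adjusted p = 0.0416) and, through the shared estimate of spread, at 1.01 in H2122 (limma adjusted p = 0.0259).

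LAMA5 and LAMB2, which encode an α and a β chain of epithelial basement membrane laminins, were not called in either line. LAMA5 ranged from 8.64 to 8.997 with LKB1 and from 8.81 to 9.41 on A549 controls, and from 8.66 to 8.77 with LKB1 and from 8.63 to 9.29 on H2122 controls. LAMB2 ranged from 7.72 to 8.68 with LKB1 and from 7.91 to 8.43 on A549 controls, and from 8.42 to 8.95 with LKB1 and from 8.29 to 9.73 on H2122 controls. The highest H2122 level of both was again pBABE replicate 2. The differences were -0.34 and 0.04 in A549 and -0.10 and -0.12 in H2122 (limma adjusted p of at least 0.183).

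**Figure D3:**
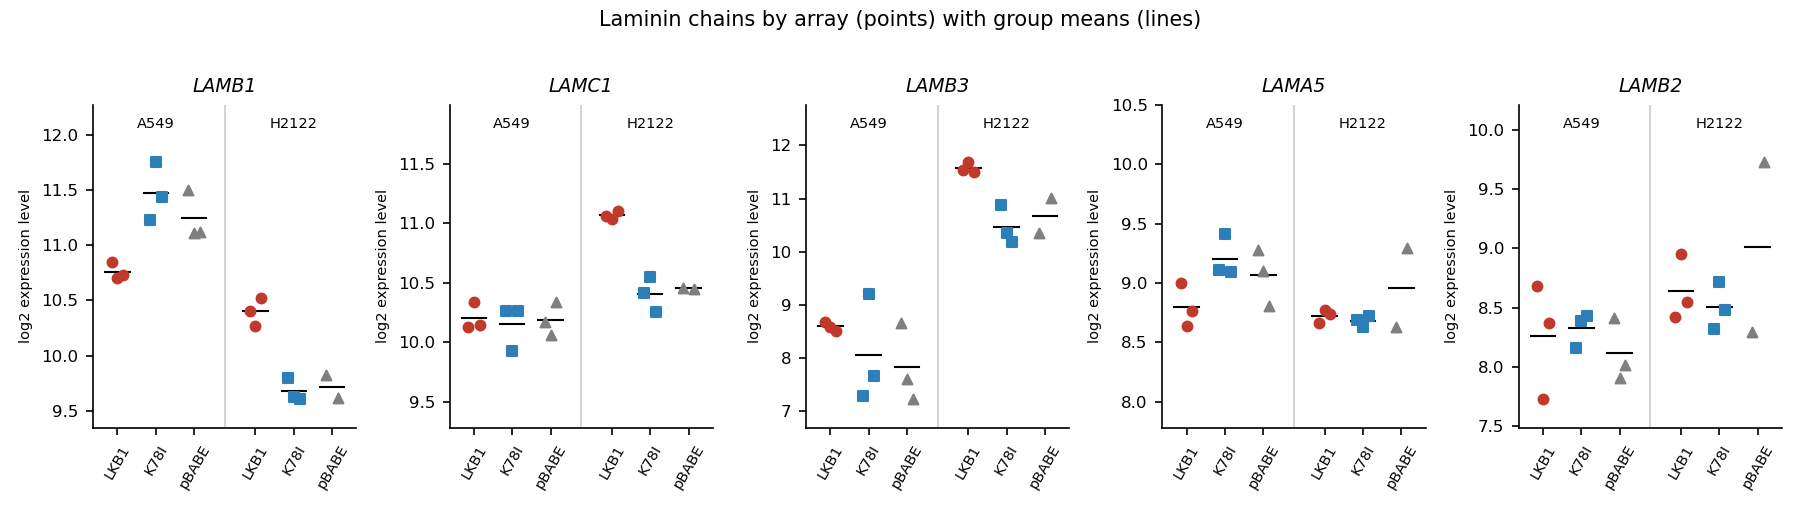
Log2 level of 5 laminin chains on each array (points) with group means (lines), LKB1 in red, K78I in blue and pBABE in grey, A549 left and H2122 right in each panel; each panel has its own axis. LAMB1 lies lower with LKB1 in A549 and higher in H2122, and in the LAMB3 panel the A549 K78I array at 9.20 lies above the LKB1 arrays.

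The other 17 members stayed under 6.2 on all 17 arrays, as did 37.8% of all genes. They include the leukocyte subunits ITGAL, ITGAM, ITGAX, ITGAD and ITGB2, the platelet subunit ITGA2B, the muscle subunit ITGA7 and the laminin chains LAMA1, LAMA2 and LAMA4. Their levels ran from 2.63 to 6.18, and their differences from -0.25 to 0.32 in A549 and from -0.28 to 0.19 in H2122. The lowest adjusted p was 0.0677 in A549, for ITGAX, and 0.367 in H2122 (limma). A change in these genes could not have been detected if their levels were background.

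The effects on the 6 shared subunits did not pass a test of difference between lines. Besides ITGB3, the effect in A549 minus that in H2122 was 0.52 for ITGB6 (95% interval -0.73 to 1.77), -0.06 for ITGAV (-0.69 to 0.58), 0.22 for ITGB4 (-0.50 to 0.95), 0.06 for ITGA3 (-0.49 to 0.62) and -0.57 for ITGA2 (-1.21 to 0.07). These intervals do not show that the lines responded alike. In all, 7 of 34 members differed in effect, 1 higher in A549 and 6 lower, where 3.6% of all genes were called, 1.63% higher and 1.98% lower. Besides those given above, ITGB5 differed by -1.30 ± 0.25 (SE, A549 minus H2122, limma adjusted p = 0.00802). Of 30 alternatives, ITGA5 and LAMC1 passed in 14 and ITGB1 in 13. Leaving out any LKB1 array of H2122, or A549 LKB1 replicate 1 or 3, ended all 3 calls. So did leaving out a control array, either A549 pBABE replicate 1 or H2122 K78I replicate 3.

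Against each control by itself most calls stood. These comparisons share the LKB1 arrays. Against K78I, 7 members rose and 2 fell in A549, where 5.25% of all genes were called, 3.56% higher and 1.69% lower, and 12 rose and 0 fell in H2122, where 3.89% were called, 2.98% higher and 0.908% lower. Against pBABE, 6 rose and 1 fell in A549, where 5.5% of all genes were called, 3.78% higher and 1.72% lower, and 8 rose and 0 fell in H2122, where 5.77% were called, 4.17% higher and 1.6% lower. ITGB6 differed by 2.93 from K78I and 3.19 from pBABE in A549, and by 2.37 from K78I and 2.72 from pBABE in H2122. In A549 the members called against K78I and not against pBABE were ITGA2 (0.77 against pBABE, limma adjusted p = 0.0796) and LAMB1 (-0.48, limma adjusted p = 0.064). In H2122 they were ITGA3 (0.71, limma adjusted p = 0.0951), ITGA5 (0.78, 0.12), ITGB1 (0.39, 0.267) and ITGB4 (1.02, 0.0656).

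Between K78I and pBABE, limma called 0 members in either line, and 0.0% of all genes. STK11 itself, higher with K78I by 5.002 in H2122, was not called (limma adjusted p = 0.167), so this count does not show that the controls are alike. At an unadjusted p under 0.05 there was 1 member in A549, ITGA7 at -0.42, and there were 4 in H2122, ITGA5 at -0.62, ITGA3 at -0.54, ITGA11 at -0.49 and ITGB1 at -0.45. In A549 the K78I array at odds with its label, replicate 2, carried ITGB6 at 5.77 and ITGAV at 10.26, below the other K78I arrays. The pBABE array at odds, replicate 3, carried ITGB6 at 7.90 and ITGAV at 11.02, above the other pBABE arrays. Without these 2 arrays ITGB6 was higher with K78I than with pBABE by 1.45 (limma adjusted p = 0.0028) and ITGAV by 0.89 (limma adjusted p = 0.029), where 0.195% of all genes were called. In H2122 pBABE replicate 2 was high in several members, and without pBABE replicate 1, which leaves it as the lone pBABE array, LAMB2 (-1.22), ITGA5 (-1.07) and ITGA3 (-0.98) were called lower with K78I, as 3 of 34 members, where 5.8% of all genes were called. What sets these arrays apart was not tested.

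**Figure D4:**
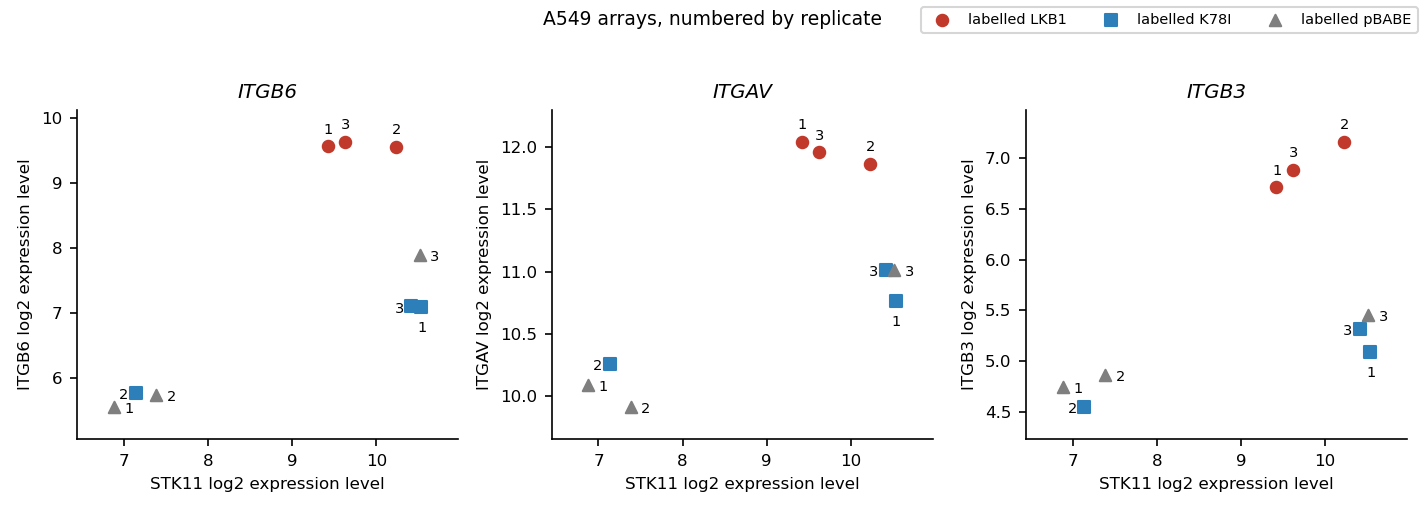
Log2 level of ITGB6, ITGAV and ITGB3 against the log2 level of STK11 on the 9 A549 arrays, coloured by label and numbered by replicate. K78I replicate 2 (STK11 7.14) and pBABE replicate 3 (STK11 10.52) stand away from the other arrays of their label, and all LKB1 arrays lie above all controls on the vertical axis.

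The calls were counted again without the arrays in doubt. Leaving out the arrays low in cell cycle genes, or all arrays in doubt, leaves 1 H2122 pBABE array. Leaving out all arrays in doubt also leaves 1 A549 pBABE array. Each such array is assumed to vary like the others. In A549 there were 9 without the 2 arrays at odds by STK11, 10 without the arrays low in cell cycle genes and 10 without all arrays in doubt, with LAMB3 added in both of the last, where 9.79%, 10.2% and 7.11% of all genes were called. In H2122 there were 13, 14 and 11, where 9.71%, 13.1% and 4.53% of all genes were called, with LAMB3 added each time, ITGB5 added in the 14, and ITGB4 and ITGB8 missing from the 11. Without the 3 H2122 arrays with conflicting labels, which leaves 1 pBABE array that is assumed to vary like the others, 5 H2122 calls stood, where 2.35% of all genes were called: ITGA2 at 1.505, ITGA3 at 1.17, ITGA5 at 1.27, ITGA6 at 0.99 and ITGAV at 1.44. ITGB6 was then at 2.45 (limma adjusted p = 0.0587), and the other 6 kept their direction at adjusted p from 0.054 to 0.133 (limma). With groups by source name 0 H2122 members were called and ITGB6 stood at 1.14 (limma adjusted p = 0.554), but under that grouping an array with STK11 at 6.22 counts as LKB1 and an array with STK11 at 11.26 as pBABE. STK11 was alike with LKB1 and K78I in H2122, so it cannot decide the label of LKB1 replicate 3, also at 11.26.

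The receptors work with focal adhesion proteins inside the cell, and of a list of 34 adaptors and kinases 31 were measured. This list and those below were chosen with earlier results of these data known. A share called above that of all genes is thus no independent result. In A549, 8 rose and 2 fell, with a list median of 0.19, where 8.44% of all genes were called, and in H2122, 10 rose and 0 fell, with a median of 0.25, where 7.28% were called. VCL (vinculin, which links talin to actin) rose by 0.90 in A549 and by 0.85 in H2122, and PXN (paxillin, a scaffold) by 0.81 in A549 and by 0.63 in H2122. TNS3 (a tensin) rose by 0.99 in A549 and by 0.84 in H2122, and ACTN1 (alpha-actinin, which cross-links actin) by 0.60 in A549 and by 1.01 in H2122. In A549, PARVA and FERMT2, which encode adaptors that bind the integrin complex, rose by 0.70 and 0.58, and TNS4, another tensin, fell by 1.83 on the log2 scale. In H2122, NEDD9 (a scaffold of the Cas family) rose by 2.01, FERMT1 (a kindlin) by 1.03, CD151 (a tetraspanin partner of laminin-binding integrins) by 0.51 and ILK by 0.47. SRC, a kinase at adhesions, fell by 0.38 in A549 and rose by 0.39 in H2122, with a difference of effects of -0.77 (limma adjusted p = 0.00867). Without the arrays with conflicting labels, and with groups by source name, 0 of the list were called in H2122, and without all arrays in doubt 4 rose.

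Of 20 basement membrane and hemidesmosome partners 14 were measured, and 4 rose in A549 and 6 in H2122, with 0 lower in either and list medians of 0.31 and 0.48. Of all genes 5.49% rose in A549 and 4.99% in H2122. Without the 2 A549 arrays at odds by STK11, 2 fell in A549 and 1 in H2122. In that setting 9.79% and 9.71% of all genes were called. COL4A1 and COL4A2, the main chains of type IV collagen, rose by 2.10 and 1.97 in A549 and by 1.77 and 1.94 in H2122. DST (dystonin, the hemidesmosome plakin) rose by 0.64 in A549 and 0.57 in H2122, and FBLN1 (a fibulin) by 0.57 in A549 and 0.84 in H2122. AGRN (agrin, which binds laminin) and NTN1 (a netrin, which has laminin-like domains) rose in H2122 by 0.62 and 0.71. Without the H2122 arrays with conflicting labels 3 rose in H2122, and with groups by source name 0 were called.

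Of 25 other integrin ligands, all measured, 6 rose and 5 fell in A549 (list median 0.02), where 8.44% of all genes were called, and 9 rose and 0 fell in H2122 (list median 0.32), where 7.28% were called. The effects of 7 differed between the lines, 1 higher in A549 and 6 lower, against 3.6% of all genes. MFGE8, an RGD protein bound by αv integrins, rose by 2.32 in A549 and 1.69 in H2122, and NPNT (nephronectin, a ligand of α8β1) by 2.002 in A549 and 1.497 in H2122. CCN2, a matricellular protein, rose by 1.79 in A549 and 1.28 in H2122, and COL5A1, a fibrillar collagen chain, by 1.65 in A549 and 1.24 in H2122. In A549, where ITGA11 rose, COL1A1, a chain of its ligand type I collagen, rose by 3.90, while VTN (vitronectin) fell by 2.84, the fibrinogen chain gene FGA fell by 3.85 and CDH1 (E-cadherin, a ligand of αEβ7) fell by 1.17 on the log2 scale. In H2122, where ITGA5 and ITGB1 rose, FN1 (fibronectin) rose by 3.89, TNC (tenascin C) by 3.399, EDIL3 (an RGD protein) by 2.70, THBS1 (a thrombospondin) by 2.50 and TGFB1 by 2.36. The effects differed between lines for COL1A1 (4.14), TNC (-3.43), VTN (-2.75), EDIL3 (-2.55), FN1 (-2.47) and TGFB1 (-1.79), each with a limma adjusted p of at most 0.0425. The FN1 difference is smaller in size than its H2122 rise. The point estimate of FN1 in A549 was thus also higher with LKB1, by less, and its test is not reported here. ITGA5 and ITGB1 did not pass in A549. Without the arrays with conflicting labels 6 rose in H2122, and with groups by source name 0 were called.

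The lines also differed without active LKB1, in the family and over all genes. On control arrays 17 of 34 members (50.0%) differed, 7 higher in A549 and 10 lower. Of all genes 40.3% were called, 20.3% higher and 20.1% lower. The count of members lies near that share and is not read as a trait of the family. The line cannot be told apart from any batch in which its arrays were run. ITGB4 was lower in A549, with a difference of -3.19 ± 0.20 (SE, A549 minus H2122, limma adjusted p = 5.44e-09). The differences of the other large ones were -3.18 for ITGB8, -2.63 for LAMB3, -1.63 for ITGA2, -1.60 for ITGB6 and -1.01 for ITGA3. LAMB1 was higher in A549 by 1.66 ± 0.11 (SE, limma adjusted p = 6.3e-09), ITGAM by 1.24, ITGB5 by 1.21, ITGA5 by 0.63, ITGB3 by 0.59 and ITGB1 by 0.46. ITGAM stayed at 6.18 or below on every array and ITGB3 at 5.46 or below on controls, so these levels may be near background. ITGAV did not pass (0.09, 95% interval -0.29 to 0.47).

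**Figure D5:**
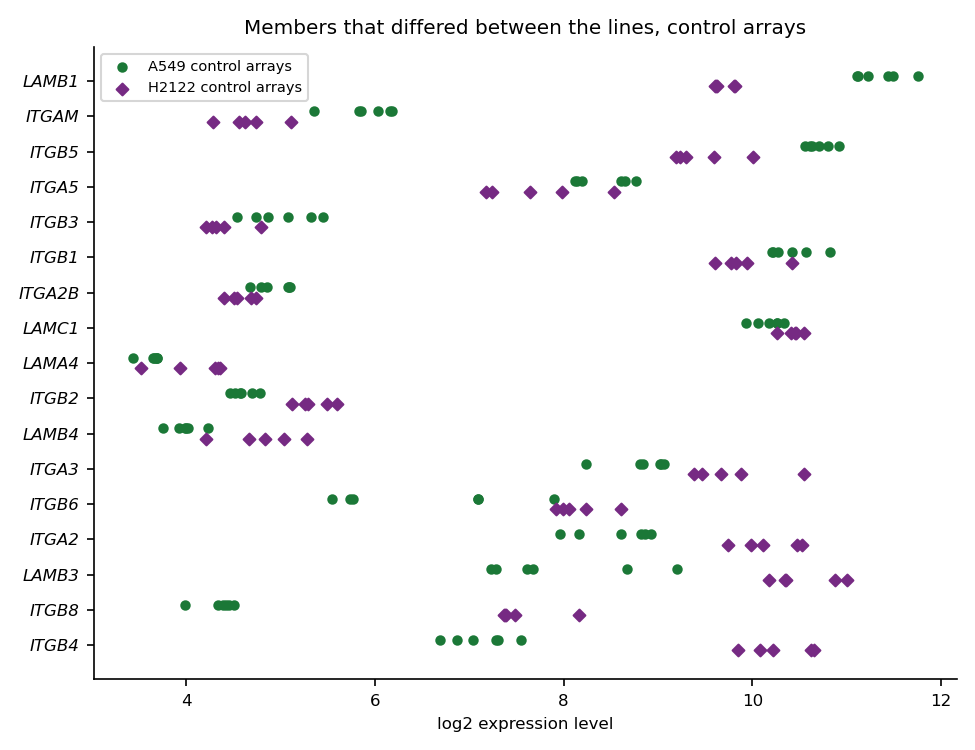
Log2 level of the 17 members called between the lines, on 6 A549 control arrays (green circles) and 5 H2122 control arrays (purple diamonds). ITGB4 and ITGB8 lie lowest in A549 relative to H2122, and LAMB1 lies highest.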

How the data were processed

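RNA of 17 cell line samples was measured on Affymetrix arrays. Per the labels' protocols, each array took 130 ng of RNA. The deposited values are log2 expression levels that the authors computed by RMA (Expression Console 1.1), per the submitters' processing notes. The method makes array distributions alike, so a shift of most genes in 1 direction cannot be seen. For the genome build, the sources used here give none.

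Of 33297 probe sets, 19181 had 1 gene symbol, 2055 had several and 12061 had none and are unnamed here. Of the gene identifiers 19143 matched a RefSeq table and 0 symbols changed. The probe set with the highest mean was kept for the 895 genes with several, which left 17958 genes. All value columns of the table belong to the 17 samples.

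Groups came from sample titles. limma 3.58.1 in R 4.3.3 (lmFit and eBayes, residual degrees of freedom 11, prior 3.8) fitted 6 groups over all genes, with p-values adjusted by Benjamini-Hochberg over 17958 genes and called under 0.05. The spread of a gene was estimated over all groups at once. STK11 had an exact permutation test of the absolute difference of means. The fit was tested on simulated data. All members may be named, with array values for those called; of each list of partners at most 8 called genes per line, by lowest adjusted p. The members and lists were chosen with earlier results of these data known. Alternatives were a replicate block, groups by source name, leaving out arrays with conflicting labels or each array in turn, quantile normalization, median centring, a filter on the dimmest 30% of genes, pooled controls, array weights, the mean of probe sets, a fit per line and a trended robust prior. Leaving out arrays at odds with STK11, arrays low in cell cycle genes, or all arrays in doubt was chosen after seeing the data. The number of arrays limits the precision.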

Additional observations from a re-analysis of the deposited data

Results flagged for a closer look

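The LKB1 effect differed between A549 and H2122, by limma's test of the difference over all genes, for 7 members. As A549 minus H2122 on the log2 scale, the differences were 3.999 for ITGA11, -1.30 for LAMB1, -1.30 for ITGB5, -0.89 for ITGA6, -0.61 for LAMC1, -1.24 for ITGA5 and -0.78 for ITGB1. Over 30 alternatives ITGA11 and ITGB5 were called in 30, LAMB1 in 29, ITGA6 in 27, ITGA5 and LAMC1 in 14, and ITGB1 in 13. Adjusted p ran up to 0.205 for ITGA5, 0.17 for ITGB1 and 0.637 for LAMC1 (limma). With a replicate block ITGA5 stood at -1.25 (limma adjusted p = 0.0526) and LAMC1 at -0.60 (limma adjusted p = 0.0599).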

How the results depend on the processing

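Direction was kept by each member called with LKB1 under each alternative run. With groups by source name, members called in H2122 numbered 0 against controls (0.00557% of all genes), 0 against K78I (0.0%) and 0 against pBABE (0.0111%). Members called numbered 3 against K78I in A549 (3.0% of all genes) and 2 in effect between lines (0.974%). Without the arrays with conflicting labels these were 5, 4 and 1 in H2122 and 3 between lines. Array weights gave 12 against pBABE in A549 and 5 in H2122, where 21.3% and 3.59% of all genes were called. A fit per line gave 5 against K78I in A549, where 2.27% of all genes were called. Without the arrays at odds with STK11, 2 members were called between K78I and pBABE in A549, and without all arrays in doubt 1, with 4 between lines. Leaving out each array in turn gave 8 to 10 calls against controls in A549 and 10 to 13 in H2122, 5 to 9 and 8 to 13 against K78I, 6 to 9 and 5 to 9 against pBABE, 0 to 0 and 0 to 3 between K78I and pBABE, 4 to 7 between effects and 16 to 18 between lines. The 5 against pBABE in H2122 came without pBABE replicate 2 or LKB1 replicate 3, the 5 against K78I in A549 without LKB1 replicate 3, the 3 between K78I and pBABE without H2122 pBABE replicate 1, and the 4 between effects without A549 pBABE replicate 1, A549 LKB1 replicate 1 or 3, any H2122 LKB1 replicate or H2122 K78I replicate 3. The STK11 difference ran from 0.56 to 1.29 in A549 and from 1.23 to 2.50 in H2122. The causes were not tested.

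With a replicate block the counts were 9 in A549 and 12 in H2122 against controls, 9 and 12 against K78I, 7 and 7 against pBABE, 0 and 0 between K78I and pBABE, 5 between effects and 17 between lines. Deviations of same-numbered arrays correlated with r from -0.64 to 0.35 in A549 and from 0.06 to 0.42 in H2122, where the 2 pBABE arrays mirror each other by construction. Pairs of different number ran from -0.52 to 0.64 in A549 and from -0.42 to 0.13 in H2122. Arrays of the same number thus tended to be more alike in H2122. In neither line was every same-numbered pair over 0.1 or every array closest to one of its own number. The numbers were therefore not taken to pair the samples, and the counts with a replicate block are given above.

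Over all genes, calls against controls numbered 1515 in A549, and 3844 with array weights, 875 with a fit per line, and 844 and 715 without LKB1 replicates 1 and 3. In H2122 they numbered 1308, and 1 with groups by source name, 422 without conflicting labels, 2345 without arrays low in cell cycle genes, 814 without all arrays in doubt, 2264 with array weights, and 755 to 868 without an LKB1 replicate. Between effects there were 647, and 175 with groups by source name, 209 without conflicting labels, 368 without all arrays in doubt and 1706 with array weights. Without H2122 pBABE replicate 1, 1041 genes were called between K78I and pBABE in H2122, against 0 with all arrays (limma).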
